A study of Mus musculus with 41 samples.

Results

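The tissue inhibitors of metalloproteinases are encoded by 4 mouse genes, *Timp1*, *Timp2*, *Timp3* and *Timp4*, which were chosen by name and make up 4 of the 54 target genes with a Ct value in a qPCR panel. The panel was run on explants from 41 female NSG mice, an immunodeficient strain that accepts human cells, in 6 groups. P mice carried a degradable electrospun nanofibre mesh (P nano-mesh) under the abdominal skin for 1 week (n = 6) or 6 weeks (n = 8). P+eMSC mice carried the same mesh with human endometrial mesenchymal stem cells (eMSC) pipetted onto it, for 1 week (n = 7) or 6 weeks (n = 7). Sham mice were collected at 1 week (n = 7) and 6 weeks (n = 6), and the sources used here do not describe the sham operation. No group carried eMSC without mesh, no age is given, some animals had served in an earlier study, and the labels name the tissue as skin.

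TIMPs are small secreted proteins that bind the active site of matrix metalloproteinases, the enzymes that cut collagen and other matrix proteins. *Timp1* is known as an inducible gene that responds to wounding and inflammatory cytokines, whereas *Timp2* is expressed more evenly across tissues. TIMP2 also takes part in the activation of the MMP2 proenzyme at the cell surface, TIMP3 is held in the extracellular matrix, and TIMP4 has a narrower tissue distribution.

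The 120 bases before the annotated start of each gene are shown because *Timp2*, *Timp3* and *Timp4* were called in the same comparison at 6 weeks and *Timp1* was not. They were taken from RefSeq (GRCm38.p6, 5′ to 3′ on the gene's strand), and capitals mark matches to the GC box GGGCGG on either strand.
Timp1 (chrX:20870046-20870165, plus strand): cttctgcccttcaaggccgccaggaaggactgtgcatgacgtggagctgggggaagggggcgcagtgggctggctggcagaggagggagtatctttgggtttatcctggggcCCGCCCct
Timp2 (chr11:118355412-118355531, minus strand): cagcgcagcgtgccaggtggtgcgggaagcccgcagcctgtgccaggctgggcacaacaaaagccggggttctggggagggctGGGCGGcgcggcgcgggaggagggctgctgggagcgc
Timp3 (chr10:86300292-86300411, plus strand): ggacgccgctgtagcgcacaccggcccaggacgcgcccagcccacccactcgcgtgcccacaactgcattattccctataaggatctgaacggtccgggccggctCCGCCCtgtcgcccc
Timp4 (chr6:115252206-115252325, minus strand): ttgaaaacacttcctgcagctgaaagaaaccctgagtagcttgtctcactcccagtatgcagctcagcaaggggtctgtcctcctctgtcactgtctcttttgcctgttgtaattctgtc

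A GC box, the motif bound by Sp1, was present within 250 bases before the start in *Timp1*, *Timp2* and *Timp3*, and in 32.7% of 32851 RefSeq promoters. The AP-1 motif TGANTCA, a site for the Fos and Jun factors, was found in the 250 bases of none of the 4 genes and in 6.75% of the promoters. The TATA box TATAAA was likewise found in none of the 4 and in 12.4% of the promoters. *Timp1* had the AP-1 variant TGAGTAA from base 27 to base 33 counted from the start as base 1, in the window ggtgggtggaTGAGTAAtgcgtccaggaag (chrX:20870182-20870211, plus strand, capitals mark the motif). That variant, searched on both strands over the 300 bases from 250 before the start to 50 from it, was present in 2.68% of the promoters. *Timp3* also had a match after the start, a further GC box from base 14 to base 19. Over the 300 bases a GC box was present in 35.7% of the promoters. The 250 bases of *Timp2* and *Timp3* held 68.0% and 65.6% G and C, more than 87.8% and 83.8% of the promoters, against 54.4% in *Timp1* and 53.6% in *Timp4*. In the same annotation *Timp1*, *Timp3* and *Timp4* lay wholly inside *Syn1*, *Syn3* and *Syn2*, the synapsin genes, and the *Timp2* span overlapped *Cep295nl*. A match of letters is a description of these windows, and no factor was measured at them.

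The level of a gene in a mouse was the Ct of 18S ribosomal RNA minus the Ct of the gene, in cycles, so that a higher value means more transcript per 18S and 1 cycle is a factor of 2 if each cycle doubles the product. Levels are compared between mice and never between genes, because each assay has its own efficiency. The 18S Ct lay between 6.20 and 7.79 in all mice. Of 40 target values without a Ct, 31 belonged to mouse 52 of the P group at 6 weeks, which also had the highest 18S Ct. *Timp1* was measured in 40 of 41 mice, with mouse 52 missing, and *Timp2*, *Timp3* and *Timp4* were measured in every mouse. The deposited fold changes of mouse 2356, a P mouse of 6 weeks by its label, matched a calculation against the 1 week sham mice (within 0.01, log2) in 49 of 54 genes, so the results that rest on either mouse are also given without them. Collagen markers of the dermal matrix had a Ct in 40 or 41 mice each, and the epithelial marker *Cdh1* had one in 40. In whole tissue, fewer cells of a type and less transcript per cell cannot be told apart.

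**Figure D1:**
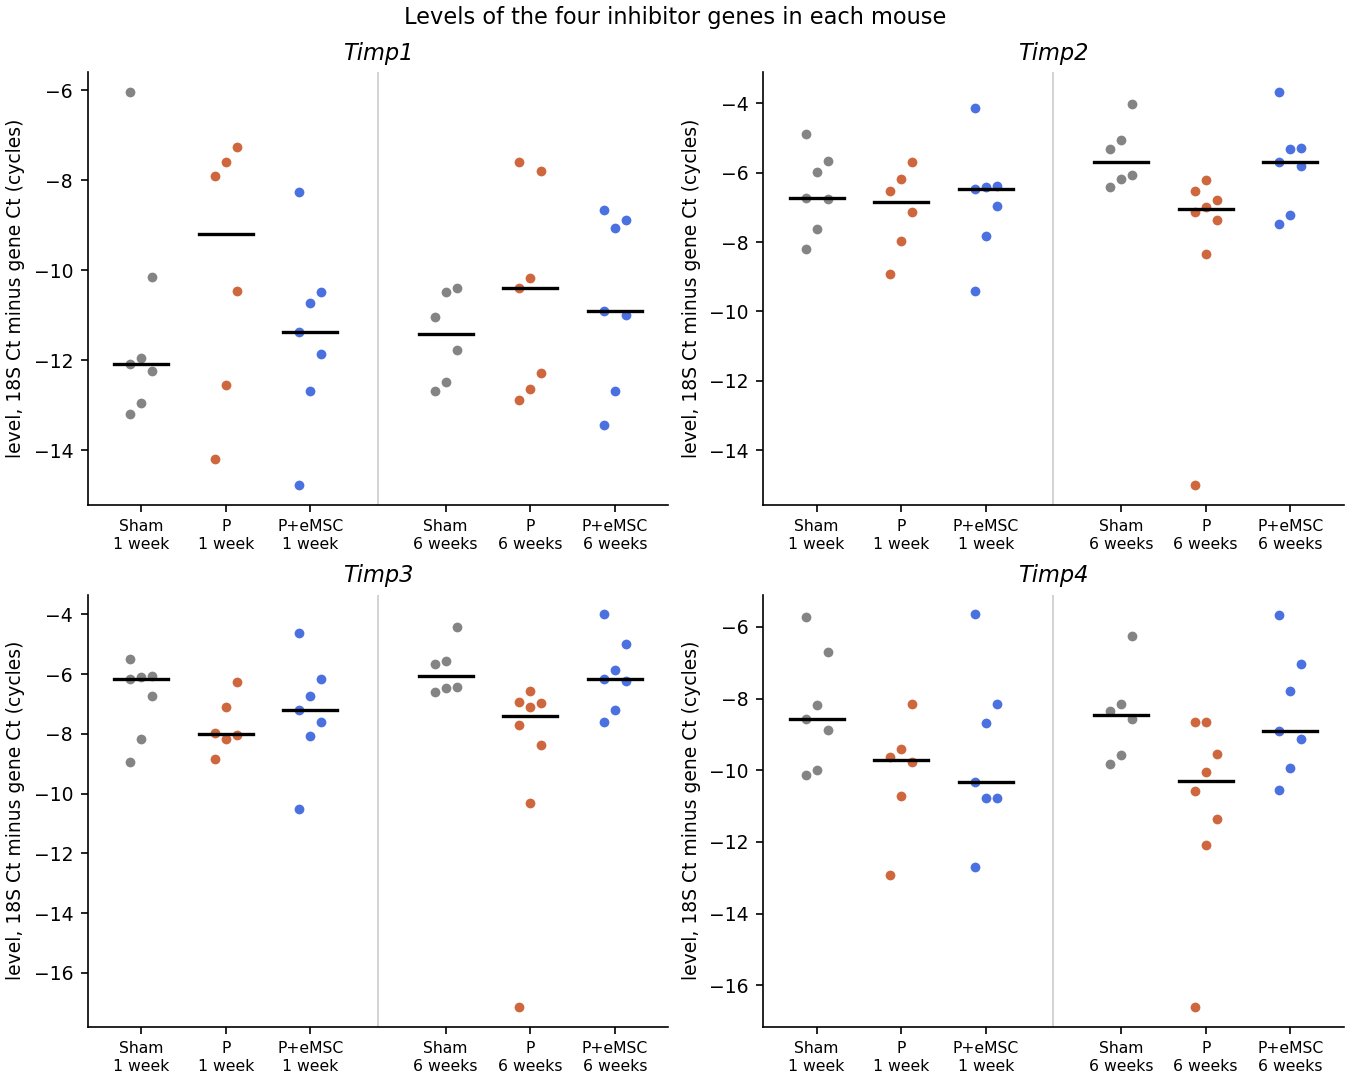
Level of each inhibitor gene in each mouse, as 18S Ct minus gene Ct in cycles (vertical axis), for the 6 groups (horizontal axis; grey Sham, orange P, blue P+eMSC). Points are mice and black bars are group medians. For *Timp2* and *Timp3* at 6 weeks, 7 of 8 P mice lay below the lowest Sham mouse, and mouse 52 lay far below the rest.

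*Timp1* varied widely between mice of the same group. At 1 week it ran from -13.20 through a median of -12.09 to -6.04 in Sham, from -14.20 through -9.19 to -7.28 in P, and from -14.77 through -11.37 to -8.27 in P+eMSC. At 6 weeks it ran from -12.68 through -11.41 to -10.40 in Sham, from -12.90 through -10.39 to -7.60 in P (n = 7), and from -13.44 through -10.90 to -8.67 in P+eMSC. The highest group median, P at 1 week, and the lowest, Sham at 1 week, were 2.89 cycles apart. All 6 groups overlapped, and each of the 5 gaps between neighbouring medians was smaller than the SD of either neighbour.

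The P mice at 1 week spanned high and low values of *Timp1*. Mice 2268, 2308 and 2396 lay at -7.28, -7.59 and -7.91, and mice 132, 133 and 2355 at -10.48, -12.55 and -14.20. Among the Sham mice of that week, mouse 2269 stood at -6.04 and the next highest, mouse 400, at -10.15. The highest *Timp1* level of the whole series was therefore in a sham mouse. At 6 weeks the P mice spread the same way, with mice 2356 and 2307 at -7.60 and -7.79, mice 2267 and 53 at -10.17 and -10.39, and mice 437, 121 and 438 between -12.30 and -12.90.

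No comparison of *Timp1* between groups passed the test. Groups were compared by the exact two-sided Mann-Whitney test, with a call at the p of 0.0513 that the study's methods name. Shifts are Hodges-Lehmann estimates with exact 95% intervals, and p-values were adjusted over the 54 genes (Benjamini-Hochberg). P against Sham at 1 week gave a shift of 1.69 cycles in *Timp1* (interval -2.11 to 4.98, exact p = 0.628), which is 3.23-fold. Leaving out each mouse moved it from 0.66 (without P mouse 2268, 2308 or 2396) to 2.56 (without P mouse 133 or 2355), and ranked within the 2 series of animal numbers described next it was 0.06 (exact p = 0.971). P+eMSC against P at 1 week gave -1.80 (interval -4.58 to 2.21, exact p = 0.234). P against Sham at 6 weeks gave 0.35 (interval -1.81 to 3.45, exact p = 0.445), and P+eMSC against Sham at 6 weeks gave 1.37 (interval -1.64 to 3.11, exact p = 0.534). Each of these intervals reaches from more than 1 cycle lower to more than 2 cycles higher.

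The animal numbers formed a series below 1000 and a series above 2000, and *Timp1* differed with the series among P mice at 6 weeks. The 3 P mice numbered above 2000 lay from -10.17 to -7.60 and the 4 measured P mice numbered below 1000 from -12.90 to -10.39, with no overlap. In P+eMSC at 6 weeks the series overlapped, with 2 mice below 1000 at -13.44 and -10.90 and 5 above 2000 from -12.69 to -8.67. In Sham at 6 weeks the order was the other way, with 2 mice above 2000 at -12.68 and -11.78 and 4 below 1000 from -12.49 to -10.40. Within the lower numbers the *Timp1* shift of P against Sham at 6 weeks was -1.42 (4 against 4 mice, exact p = 0.486), and within the higher numbers it was 4.08 (3 against 2 mice, exact p = 0.200, the smallest p that 3 against 2 mice allow). Ranked within both series it was -0.07 (exact p = 0.786). What the number series stands for is not given in the sources used here, and its part in the result was not tested.

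At 6 weeks *Timp2*, *Timp3* and *Timp4* were lower in P than in Sham mice. *Timp2* lay at -15.00 (mouse 52), -8.36, -7.38, -7.12, -6.98, -6.79, -6.53 and -6.21 in P and at -6.42, -6.17, -6.07, -5.32, -5.06 and -4.03 in Sham. Of the 8 P mice, 7 were below every Sham mouse, and mouse 437 was above only the lowest of them. *Timp2* averaged -8.05 ± 2.88 (SD, n = 8) in P and -5.51 ± 0.90 (SD, n = 6) in Sham, a shift of -1.70 cycles (interval -3.30 to -0.62) or 3.25-fold lower (exact p = 0.00133, adjusted p = 0.0360 over the 54 genes).

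*Timp3*, the matrix-bound inhibitor, showed the same arrangement of mice. It lay at -17.15 (mouse 52), -10.33, -8.38, -7.71, -7.10, -6.97, -6.93 and -6.57 in P and at -6.58, -6.48, -6.42, -5.68, -5.57 and -4.42 in Sham. Again 7 of 8 P mice were below every Sham mouse, with mouse 437 the exception. The means were -8.89 ± 3.55 (SD, n = 8) and -5.86 ± 0.83 (SD, n = 6), and the shift was -1.84 (interval -4.65 to -0.52) or 3.59-fold lower (exact p = 0.00133, adjusted p = 0.0360).

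*Timp4* overlapped more. It lay at -16.61 (mouse 52), -12.08, -11.36, -10.57, -10.05, -9.55, -8.67 and -8.66 in P and at -9.83, -9.56, -8.58, -8.35, -8.15 and -6.27 in Sham. Of the 8 P mice, 5 were below the lowest Sham mouse. The means were -10.94 ± 2.59 (SD, n = 8) and -8.46 ± 1.27 (SD, n = 6), and the shift was -1.95 (interval -4.31 to -0.22) or 3.85-fold lower (exact p = 0.0200, adjusted p = 0.0997). *Timp4* was thus called at the methods' threshold and not after adjustment.

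In this comparison 14 of 54 genes (25.9%) were called and all 14 were lower in P, so the 3 of 4 inhibitor genes called lower are read against that share. The median shift was -1.77 over the 4 genes and -0.83 over the 54. By adjusted p below 0.05, 2 of 54 genes (3.7%) were called, and they were *Timp2* and *Timp3*. Among the 54 shifts ordered from the lowest, *Timp4*, *Timp3* and *Timp2* ranked 3, 4 and 6, and *Timp1* ranked 47. Without mice 52 and 2356, *Timp2* (-1.39, exact p = 0.00433) and *Timp3* (-1.60, exact p = 0.00433) were still called and *Timp4* (-1.30, exact p = 0.0649) was not. Within the lower animal numbers the shifts were -2.25, -2.36 and -2.40 for *Timp2*, *Timp3* and *Timp4* (5 against 4 mice, exact p = 0.0317, 0.0317 and 0.0635), and within the higher numbers -0.67, -0.65 and -1.46 (3 against 2 mice, exact p = 0.200, 0.200 and 0.400).

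The size of these shifts depended on the reference. Since 43 of 54 genes had a shift below 0 in P against 18S, the levels were also set against the median of 20 genes detected in every mouse, the inhibitors left out, which moved the median shift of the 54 genes from -0.83 to 0.20. On that scale *Timp3* was still called lower (-0.87, exact p = 0.0200, adjusted p = 0.299), while *Timp2* (-0.36, exact p = 0.181) and *Timp4* (-0.34, exact p = 0.491) were not, and *Timp1* was at 1.83 (exact p = 0.101). *Timp3* was the only gene of the 54 (1.85%) called lower on that scale, where 8 genes (14.8%) were called in all and 7 of them were higher. Only *Timp3* was therefore called lower under both references, and whether 18S or the panel median is the steadier measure of input was not tested.

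**Figure D2:**
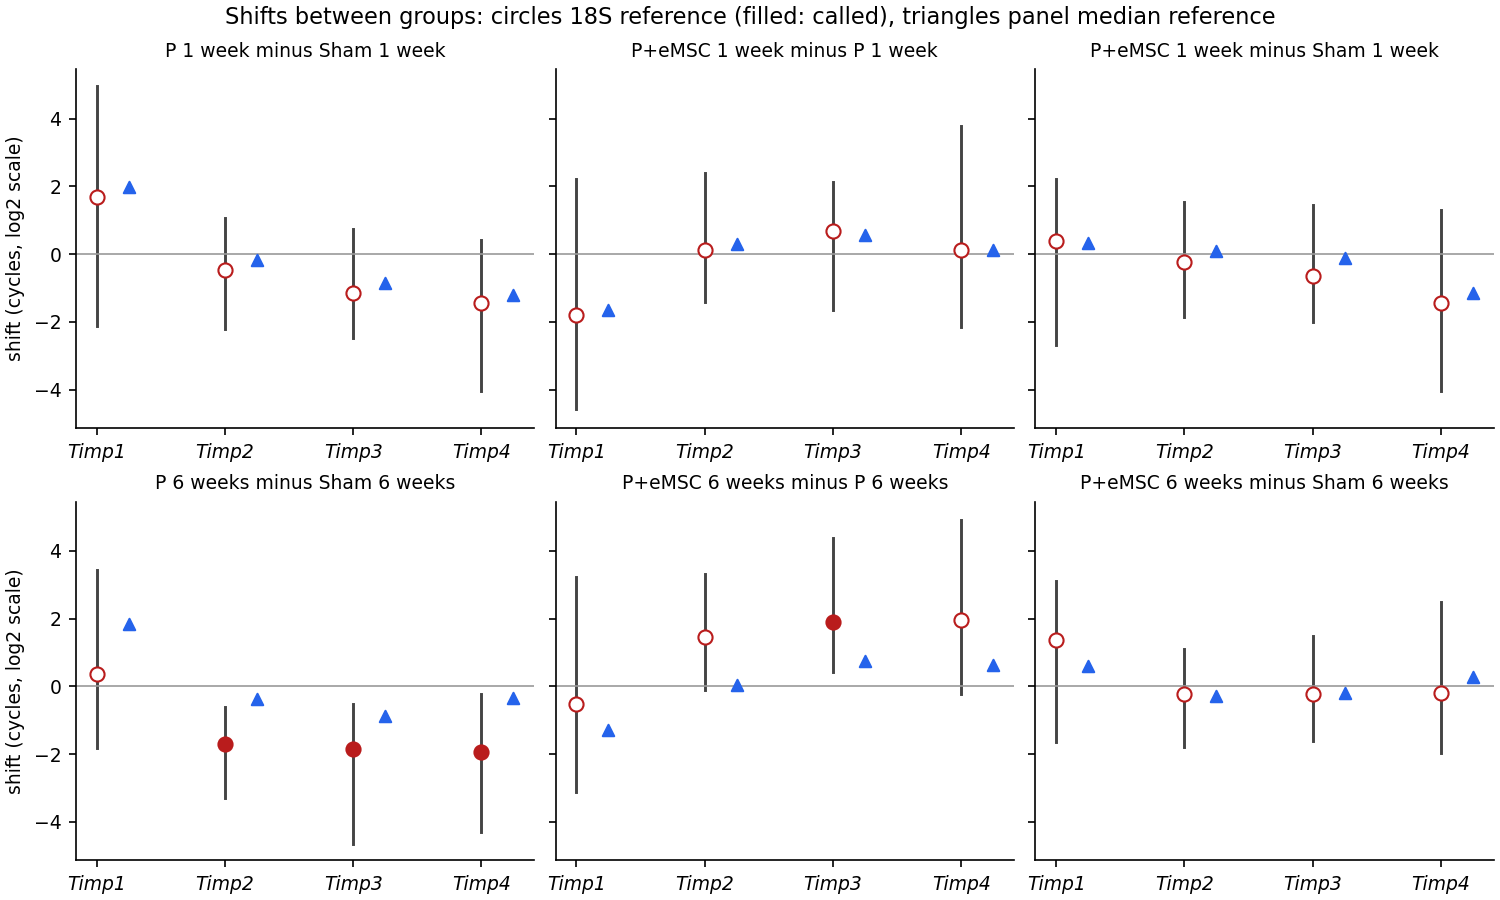
Shift between groups in cycles (log2 scale, vertical axis) for each gene (horizontal axis) in the 6 comparisons within a week. Circles are Hodges-Lehmann shifts against 18S with exact 95% intervals as lines, filled where called, and triangles are shifts against the panel median. *Timp2*, *Timp3* and *Timp4* were called lower in P than in Sham at 6 weeks, *Timp3* was called higher in P+eMSC than in P at 6 weeks, and the triangles of *Timp2*, *Timp3* and *Timp4* in both comparisons lie nearer 0 than their circles.

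With eMSC on the mesh, the 6 week levels of *Timp2*, *Timp3* and *Timp4* overlapped those of the Sham mice and spread beyond them at both ends, with 2 of 7 mice below the lowest Sham mouse in each gene. In P+eMSC, *Timp2* ran from -7.48 through a median of -5.70 to -3.67, *Timp3* from -7.60 through -6.15 to -3.99, and *Timp4* from -10.56 through -8.90 to -5.65. The shifts of P+eMSC against Sham were -0.24 (interval -1.79 to 1.10), -0.23 (interval -1.61 to 1.48) and -0.21 (interval -1.97 to 2.49), each with an exact p of 0.945. None of the 4 inhibitors and none of the 54 genes (0%) was called in either direction. The intervals still allow a difference of 1 cycle or more for each gene, so these values do not show that the groups are alike.

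Against P, the P+eMSC mice of 6 weeks were called higher in *Timp3* alone of the 4. Its shift of 1.90 (interval 0.42 to 4.38, exact p = 0.0205, adjusted p = 0.158) was 3.72-fold. *Timp4* had a shift of 1.96 (interval -0.23 to 4.92) and *Timp2* one of 1.45 (interval -0.10 to 3.31), both with an exact p of 0.0541, just above the threshold. Against the panel median, *Timp4* was at 0.63 (exact p = 0.536) and *Timp2* at 0.03 (exact p = 0.955). *Timp1* had a shift of -0.51 (interval -3.11 to 3.22, exact p = 0.805). In this comparison 10 of 54 genes (18.5%) were called, all of them higher, and none had an adjusted p below 0.05. The median shift was 1.67 over the 4 genes and 1.15 over the 54, of which 7 were below 0. With the panel median as reference, the median over the 54 was -0.15. The P mice of 6 weeks are the same animals in both comparisons, so a low P group enters each of them.

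The *Timp3* call did not rest on a single mouse. Leaving out each mouse in turn gave shifts from 1.36 to 2.11 (exact p from 0.00799 to 0.0426), and leaving out mice 52 and 2356 together gave 1.57 (exact p = 0.0350). Ranked within the animal number series it was 1.58 (exact p = 0.0476). *Timp3* averaged -6.00 ± 1.23 (SD, n = 7) with eMSC and -8.89 ± 3.55 (SD, n = 8) without. Against the panel median, however, the shift was 0.75 (exact p = 0.152), and 1 of 54 genes (1.85%) and no inhibitor was called.

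At 1 week no inhibitor was called in any of the 3 comparisons. *Timp2* ran from -8.19 through a median of -6.72 to -4.88 in Sham, from -8.93 through -6.83 to -5.68 in P and from -9.40 through -6.46 to -4.13 in P+eMSC. *Timp3* ran from -8.94 through -6.17 to -5.48 in Sham, from -8.85 through -7.99 to -6.27 in P and from -10.51 through -7.20 to -4.62 in P+eMSC. *Timp4* ran from -10.14 through -8.57 to -5.73 in Sham, from -12.92 through -9.70 to -8.16 in P and from -12.69 through -10.32 to -5.64 in P+eMSC. The ranges of the 3 groups overlapped in each gene, but not throughout. In *Timp4*, 4 of 7 P+eMSC mice lay below the lowest Sham mouse. In *Timp3*, 4 of 7 Sham mice lay above the highest P mouse.

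The nearest to a call at 1 week were *Timp3* and *Timp4* in P against Sham. Their shifts were -1.14 (interval -2.48 to 0.75) and -1.45 (interval -4.03 to 0.41), both with an exact p of 0.181, and they ranked 3 and 2 from the lowest of the 54 genes. The shift of *Timp2* was -0.48 (interval -2.21 to 1.07, exact p = 0.534). Here 3 of 54 genes (5.56%) were called, all lower in P. Without mouse 2354 of the Sham group, *Timp3* was called (-1.54, exact p = 0.0411). In P+eMSC against P at 1 week the shifts of *Timp2*, *Timp3* and *Timp4* lay between 0.12 and 0.68, and in P+eMSC against Sham those of all 4 genes lay between -1.43 and 0.39. No gene of the 54 (0%) was called in either of those comparisons. The shifts of P+eMSC against Sham at 1 week ran opposite ways in the animal number series. *Timp4* was at -3.16 among the lower numbers (4 against 5 mice, exact p = 0.0159, below the threshold) and at 1.72 among the higher (3 against 2 mice, exact p = 0.200), and *Timp3* at -1.63 (exact p = 0.111) and 1.84 (exact p = 0.80). Ranked within both series, *Timp4* was at -2.40 (exact p = 0.349) and *Timp3* at -1.24 (exact p = 0.310).

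Over time, none of the 4 genes was called between 1 and 6 weeks in Sham, P or P+eMSC mice. The shifts of 6 against 1 week lay between 0.10 and 0.89 in Sham, between -0.51 and 0.08 in P, and between 0.96 and 1.21 in P+eMSC. Some changed sign when a mouse was left out, with *Timp3* in P from -0.27 to 0.40 and *Timp4* in Sham from -0.28 to 0.31. The panel had 2 of 54 genes (3.7%) called in Sham, both higher at 6 weeks, and 0 of 54 (0%) in P and in P+eMSC. Whether an effect changed between the weeks was tested with limma as the difference of differences. For P+eMSC against P it lay between 1.33 and 2.43 cycles over the 4 genes (SE from 1.33 to 1.63, adjusted p from 0.485 to 0.550). For P against Sham it lay between -2.10 and -0.29 (SE from 1.35 to 1.66, adjusted p from 0.736 to 0.987). No gene of the 54 had an adjusted p or an unadjusted p below 0.05 in any of the 3 such tests. Without mouse 52, *Timp2*, *Timp3* and *Timp4* were at 0.99, 1.25 and 1.19 for P+eMSC against P. For P against Sham they were then at -1.01, -0.92 and 0.11. Without mouse 2356 the 4 genes lay between 1.82 and 2.68 for the first and between -2.36 and -0.64 for the second. Against the panel median they lay between -0.11 and 0.33 for the first and between -0.37 and 1.03 for the second. The calls at 6 weeks and their absence at 1 week are thus not shown to differ.

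By group median, *Timp2* ran in the order Sham at 6 weeks (-5.69), P+eMSC at 6 weeks (-5.70), P+eMSC at 1 week, Sham at 1 week, P at 1 week and P at 6 weeks (-7.05). *Timp3* ran from Sham at 6 weeks (-6.05), P+eMSC at 6 weeks (-6.15) and Sham at 1 week (-6.17) to P+eMSC at 1 week, P at 6 weeks (-7.40) and P at 1 week (-7.99). *Timp4* ran from Sham at 6 weeks (-8.47), Sham at 1 week (-8.57) and P+eMSC at 6 weeks (-8.90) to P at 1 week, P at 6 weeks (-10.31) and P+eMSC at 1 week (-10.32). In each gene every gap between neighbouring medians was smaller than the SD of either neighbour. Sham at 6 weeks had the highest median of *Timp2*, *Timp3* and *Timp4*, whereas *Timp1* was highest in P at 1 week.

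*Timp1* was also set against the mean of the other 3 genes within each mouse, where the 18S value cancels. In Sham mice of 6 weeks this difference kept to a narrow range, from -5.49 through a median of -4.91 to -3.96 (mean -4.87 ± 0.52, SD, n = 6). In P mice of 6 weeks it ran from -5.15 through -2.41 to 0.88 (mean -2.24 ± 2.67, SD, n = 7). Of these 7 mice, 437, 121 and 438 lay at -5.15, -5.06 and -4.34, among or next to the Sham values, and 2267, 53, 2307 and 2356 lay at -2.41, -0.13, 0.53 and 0.88, above every Sham mouse of that week. In P+eMSC mice of 6 weeks it ran from -5.45 through -4.57 to -1.30, with 2 of 7 mice above the Sham range. No test was made of this difference. In P, 3 of the 4 mice above the Sham values were the 3 numbered above 2000. Among the lower numbers the medians were -4.70 in P and -4.84 in Sham (4 mice each), and among the higher numbers 0.53 in P (3 mice) and -5.04 in Sham (2 mice). Without mouse 2356, 3 of 6 P mice lay above every Sham mouse, up to 0.53.

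At 1 week the same difference ran from -6.71 through -4.36 to 0.99 in Sham, from -5.24 through -1.32 to 1.26 in P, and from -5.79 through -3.91 to -0.12 in P+eMSC. The range of the Sham mice was set by mouse 2269 at 0.99, since the next highest Sham mouse lay at -3.28. Above that second value were 4 of 6 P mice and 3 of 7 P+eMSC mice. The P group had the highest median at each week. Among the lower numbers at 1 week the medians were -2.78 in P (2 mice), -2.79 in P+eMSC (4 mice) and -4.90 in Sham (5 mice). Among the higher numbers they were -0.31 in P (4 mice), -5.68 in P+eMSC (3 mice) and -1.14 in Sham (2 mice).

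**Figure D3:**
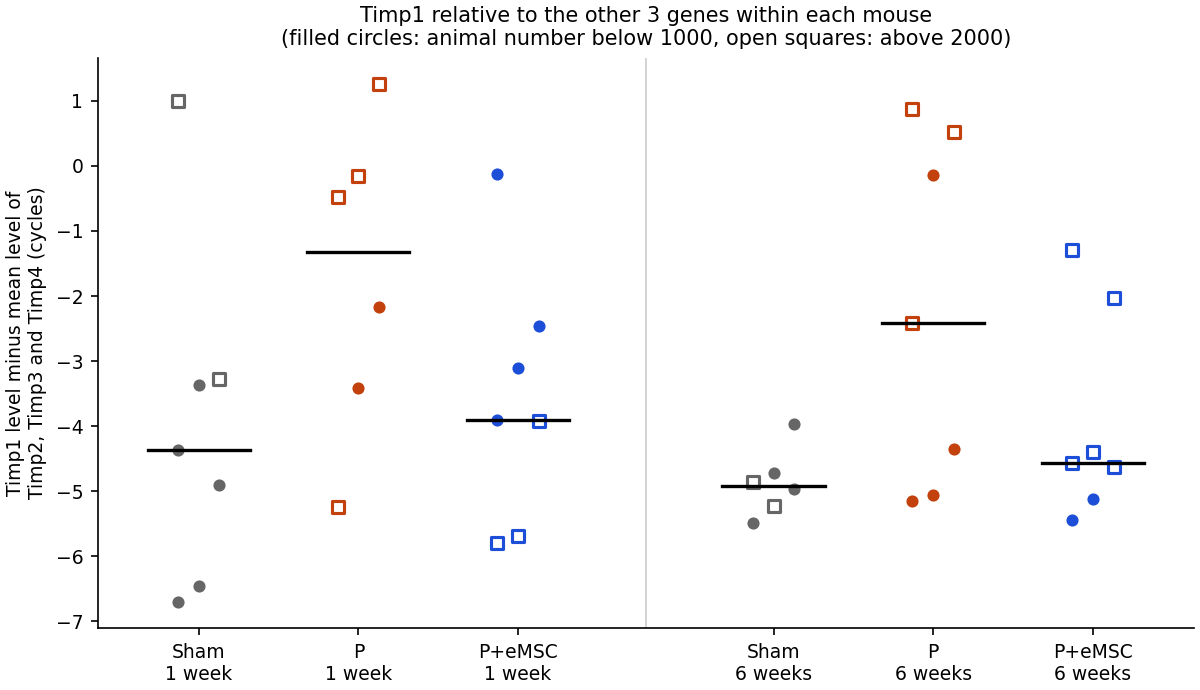
*Timp1* level minus the mean level of *Timp2*, *Timp3* and *Timp4* in the same mouse, in cycles (vertical axis), for the 6 groups (horizontal axis). Filled circles are mice numbered below 1000, open squares mice numbered above 2000, and bars are medians. Sham mice of 6 weeks lay between -5.49 and -3.96, and P mice of 6 weeks reached 0.88.

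Among the other 3 genes, *Timp3* and *Timp2* kept closest to each other. The within-group SD of *Timp3* minus *Timp2*, pooled over the 6 groups, was 0.63 cycles (n = 41), against 1.38 for *Timp4* minus *Timp2* and 1.30 for *Timp4* minus *Timp3*. For *Timp1* minus *Timp2*, *Timp3* and *Timp4* it was 1.66, 2.03 and 2.77 (n = 40). In Sham mice of 6 weeks *Timp3* minus *Timp2* ran only from -0.52 to -0.17. It ran from -2.15 (mouse 52) to 0.15 in P mice of 6 weeks and from -0.87 to 0.32 in P+eMSC mice of 6 weeks.

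Likeness between genes was described by Spearman's rho over mice on levels against the panel median, and carries no test, since all values of a mouse share its cDNA and that median. The 3 genes most like *Timp1* were the chemokines *Ccl2* (rho 0.85, n = 40), *Ccl4* (0.80, n = 37) and *Ccl3* (0.80, n = 40), which attract monocytes and other leukocytes. Those most like *Timp2* were *Ccl11* (0.68, n = 41), the eosinophil chemokine eotaxin, *Timp3* (0.42, n = 41) and *Pdgfa* (0.39, n = 40). Those most like *Timp3* were *Fgf2* (0.57, n = 40), *Itgb1* (0.55, n = 41) and *Fgf1* (0.50, n = 40). Those most like *Timp4* were *Ccl11* (0.59, n = 41), *Fgf2* (0.58, n = 40) and *Vegfa* (0.54, n = 41).

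*Timp1* lay opposite to the other inhibitors on this scale. Its rho was -0.75 with *Timp3*, -0.63 with *Timp4* and -0.22 with *Timp2* (n = 40 each), and *Timp3* ranked last of the 53 other genes by likeness to *Timp1*. The order depended on the reference, because against 18S the rho of *Timp1* was 0.25 with *Timp3*, -0.07 with *Timp4* and 0.49 with *Timp2*. *Ccl2* stayed close to *Timp1* against 18S as well (rho 0.91, n = 40). *Timp3* with *Timp2* moved from 0.42 to 0.90 against 18S (n = 41).

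**Figure D4:**
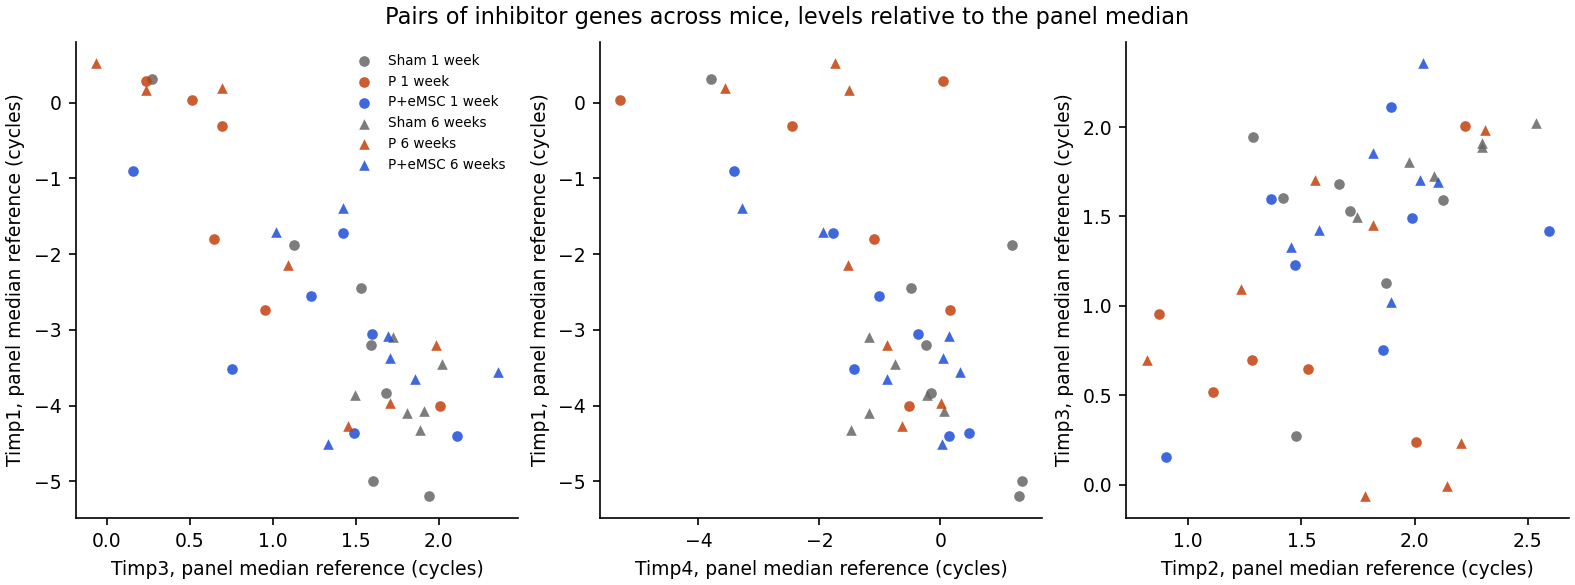
Levels against the panel median in cycles, 1 point a mouse (circles 1 week, triangles 6 weeks; grey Sham, orange P, blue P+eMSC). *Timp1* (vertical axis) falls as *Timp3* or *Timp4* (horizontal axis) rises in the left and middle panels, and *Timp3* (vertical axis) rises loosely with *Timp2* (horizontal axis) in the right panel.

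The enzymes that TIMPs inhibit were measured by 3 genes, *Mmp2* and *Mmp9*, the gelatinases, and *Mmp19*. In P against Sham at 6 weeks 0 of 3 were called, with *Mmp2* at -1.30 (exact p = 0.0813), *Mmp9* at 1.30 (exact p = 0.366) and *Mmp19* at 0.12 (exact p = 0.945). In P+eMSC against P at 6 weeks 1 of 3 was called, *Mmp2* with a shift of 1.41 (exact p = 0.0401, adjusted p = 0.209), where 10 of 54 genes (18.5%) were. The median shift of the 3 genes was 0.82 there, against 1.15 over the 54, and -0.26 with the panel median as reference. None of the 3 was called in the other 7 comparisons. Within a mouse, *Timp2* minus *Mmp2* ran from 0.84 through a median of 1.07 to 1.42 in Sham mice of 6 weeks. It ran from -0.14 through 0.58 to 1.47 in P and from 0.13 through 0.80 to 1.04 in P+eMSC. The ranges overlapped, but the medians of P and P+eMSC lay below the lowest Sham mouse of that week. At 1 week the medians of *Timp2* minus *Mmp2* were 0.56 in Sham, 0.67 in P and 0.54 in P+eMSC. Sham at 6 weeks thus had the highest median of all groups. No test was made of this difference. *Timp1* minus *Mmp9* ran from 0.15 to 2.68 (median 1.25) in Sham mice of 6 weeks, from -2.55 to 3.996 (median 0.40, n = 7) in P and from -1.67 to 3.43 (median 0.91) in P+eMSC, again with overlap between the groups.

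The transforming growth factor beta genes, regulators of matrix production, had calls in 4 of the 9 comparisons. In P against Sham at 6 weeks 3 of 4 were called lower, where 14 of 54 genes (25.9%) were, *Tgfb2* (-1.31, exact p = 0.00816), *Tgfb3* (-2.07, exact p = 0.00799) and *Tgfbr1* (-1.04, exact p = 0.0200), each with an adjusted p above 0.05, and *Tgfb1* was at -0.55 (exact p = 0.414). Against the panel median none of the 4 was called lower there, and their median shift moved from -1.18 to -0.21. In P+eMSC against P at 6 weeks 2 of 4 were called higher, *Tgfb3* (2.24) and *Tgfbr1* (1.39), where 10 of 54 genes (18.5%) were. *Tgfb3* was also called lower in P than in Sham at 1 week (-0.63, exact p = 0.0513), and *Tgfb2* (1.32) and *Tgfb3* (0.64) were called higher in Sham at 6 than at 1 week (exact p = 0.0350 each), comparisons in which no inhibitor was called against 18S. The cytokines *Il1b*, *Il6* and *Tnfa*, of which IL-1 and TNF are known inducers of *Timp1*, had 0 of 3 called in any of the 9 comparisons. In P against Sham at 1 week, *Il1b*, *Il6* and *Tnfa* shifted by 2.26, 1.61 and 1.62 (exact p = 0.138, 0.445 and 0.366). *Timp1* shifted by 1.69 there (exact p = 0.628). At 6 weeks the shifts were 2.07, -0.50 and 0.42 in the cytokines and 0.35 in *Timp1*. A link between the cytokines and *Timp1* was not tested. The 5 collagen genes had 0 called in any comparison, with median shifts of -0.84 in P against Sham at 6 weeks and 1.18 in P+eMSC against P at 6 weeks. The medians over the 54 genes were -0.83 and 1.15 there. With the panel median as reference, the collagen medians were 0.30 and -0.17.

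No cell marker was called in P against Sham at 6 weeks. In P against Sham at 6 weeks 0 of 5 fibroblast and matrix genes and 0 of 5 macrophage genes (*Mrc1*, *Arg1*, *Nos2*, *Ccr1* and *Ccr2*) were called, with median shifts of -0.84 and -0.82, near the median of all 54 genes. The mean level of the 5 matrix genes ran from -9.27 to -5.64 in P (n = 7, mouse 52 lacking a value) and from -7.24 to -4.48 in Sham. That of the 5 macrophage genes ran from -13.70 to -8.84 in P (n = 7) and from -12.39 to -9.08 in Sham. The epithelial marker *Cdh1* had a shift of -1.30 (exact p = 0.366) and the leukocyte marker *Ccr7* one of -0.10. *Itgb2* and *Cd86* were named for the leukocyte list and are not analysed here. The part of cell composition in the inhibitor results was not tested.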

How the data were processed

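Explant RNA was reverse transcribed, preamplified and quantified by mouse TaqMan assays in a Fluidigm array, whose software gave the authors the Ct values. The deposited Ct table was read as a score (999 or null means no Ct) and the deposited fold change, a ratio to sham from 18S-normalized Ct, was used only as a check and as an alternative. *Timp* levels were calculated here as 18S Ct minus gene Ct, with values lacking a Ct left out. Groups came from the labels. The 9 pairwise comparisons used the exact two-sided Mann-Whitney test over all 54 genes (Python 3.11.15, scipy 1.17.1), and changes between weeks used limma 3.58.1 in R 4.3.3. Tests were checked on simulated data. Mice are separate animals, and the number of mice per group limits the precision. Cross-reaction of the assays with human transcripts is not given in the sources used here. The genes named by likeness were the 3 with the highest Spearman's rho. The members, gene lists and alternatives were chosen with earlier results of these data known.

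Calculated fold changes of *Timp1*, *Timp2* and *Timp4* lay within 0.01 (log2) of the deposited ones in all measured mice but mouse 2356. For *Timp3* this held in 19 of 41 mice. The 6 week values other than that of mouse 2356 were set against a calibrator 0.14 cycles away. Mouse 2356 differed by 0.95, its value matching the 1 week sham mice, and mouse 2309 of 1 week differed by -0.81.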

Additional observations from a re-analysis of the deposited data

Results flagged for a closer look

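A mouse stood apart from its group by Dixon's criterion in 4 of 30 group tests, made over the 4 genes and the within-mouse difference. Chance alone marks about 1 in 20 such groups. *Timp1* in the Sham group at 1 week was marked by mouse 2269, at -6.04 against -10.15 for the next mouse. The other marks were mouse 52 of the P group at 6 weeks, at -15.00 for *Timp2*, -17.15 for *Timp3* and -16.61 for *Timp4*. These 3 come from a single mouse, whose *Timp1* had no Ct, and without it the 3 genes were still called lower in P than in Sham at 6 weeks. No difference of differences between weeks passed the test.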

How the results depend on the processing

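No called shift changed direction under any alternative run. In P against Sham at 6 weeks, 3 inhibitors were called, 1 (*Timp3*) with the panel median and 2 (*Timp2* and *Timp3*) by adjusted p below 0.05, and leaving out any mouse gave 3. In P+eMSC against P at 6 weeks, 1 was called, 0 with the panel median and 0 by adjusted p. The count ran from 1 to 3 leaving out each mouse. It was 3 by limma at p below 0.05 and 3 by the exact permutation test of the means. Both compare means, and the P means of these genes include mouse 52. The mean differences of *Timp2*, *Timp3* and *Timp4* were 2.26, 2.89 and 2.52, against Hodges-Lehmann shifts of 1.45, 1.90 and 1.96. Without mouse 52 the Mann-Whitney test called *Timp3* alone, with *Timp2* and *Timp4* at an exact p of 0.0973. The share of panel genes called by the tests of means is not given here. With the panel median, 1 (*Timp2*, 0.52, exact p = 0.0140) was called in Sham at 6 against 1 week, where 18S gave 0. Leaving out each mouse gave from 0 to 1 in P against Sham at 1 week and in P+eMSC at 6 against 1 week. The cause was not tested.

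Shifts that changed sign were uncalled. They included shifts of 6 against 1 week. Leaving out each mouse gave -0.03 to 0.72 for *Timp1* and -0.28 to 0.31 for *Timp4* in Sham. In P it gave -1.82 to 0.09 for *Timp1* and -0.27 to 0.40 for *Timp3*, which changed in 9 of 14 runs. With the panel median, *Timp1* and *Timp4* became -0.65 and -1.03 in Sham, and *Timp2* became 0.26 in P. *Timp1* in P+eMSC against P at 6 weeks became 0.65 with its missing value set below the lowest, with mouse 2356 counted at 1 week, or without mice 52 and 2356 (an alternative chosen after seeing the data), and ran from -0.76 to 0.65 leaving out each mouse. *Timp1* became -0.074 in P against Sham at 6 weeks within the number series, and -0.22 in P+eMSC against Sham at 1 week by limma and by the permutation test. *Timp2* there became 0.079 with the panel median and ran from -0.60 to 0.27. In P+eMSC against P at 1 week, *Timp2* ran from -0.21 to 0.44 and *Timp4* from -0.53 to 0.84. In P+eMSC against Sham at 6 weeks, *Timp2*, *Timp3* and *Timp4* became 0.12, 0.26 and 0.13 within the number series, *Timp4* became 0.28 with the panel median and 0.034 by limma and the permutation test, and leaving out each mouse gave -0.57 to 0.14, -0.57 to 0.26 and -0.54 to 0.51.

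The planned *Gapdh* reference was not run. Mice could not be paired by animal number, because the numbers differ between groups. The paper states that each eMSC line came from a separate patient biopsy. The sources used here do not say which line each P+eMSC mouse received, so pairing by donor was not possible either. The part of the donor in the spread of the P+eMSC mice was not tested. Differences are limited by the 6 to 8 mice per group and by 1 Ct per gene and mouse.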
